A study of Mus musculus with 9 samples.

Results

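Among the 69547 long noncoding transcripts counted in mouse spinal cord, 63 had a span that overlapped 1 of 8 genes for glutamate receptors. These were every listed transcript whose deposited span touched the GRCm38 gene body (GENCODE M21) of Gria1, Gria2, Gria3, Gria4, Grin2a, Grin2b, Grik2 or Grm5. Grik2 held 18 of them, Gria4 11, Grm5 9, Gria3 7, Gria2, Grin2a and Grin2b 5 each, and Gria1 3. In all, 29121 listed transcripts overlapped a protein-coding gene body, and 10197 coding genes held at least 1. Of the 63, 49 lay in introns and touched no exon of a coding gene, and 14 touched an exon, in most cases a UTR. The transcripts were unspliced in 52 of 63 cases, and none overlapped a second coding gene.

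Total RNA of spinal cord from wild type C57BL/6 mice aged 7 to 9 weeks was sequenced on day 7, in 3 groups of 3 libraries. The HBO group had injured cord and treatment with hyperbaric oxygen (oxygen given at raised pressure), whose schedule is not given in the sources used here. The injury group had spinal cord injury alone, with no level or method given. The control group carried no injury per the sample labels, while the series text speaks of sham animals. No label says whether replicates were separate animals, and the p-values below therefore measure the spread between libraries, which may be technical.

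Glutamate is the main excitatory transmitter of the spinal cord. AMPA receptors, tetramers of the Gria subunits, carry fast excitation; NMDA receptors need a Grin2 subunit beside Grin1 and pass calcium; kainate receptors include the Grik2 subunit; and Grm5 encodes a metabotropic receptor that signals through a G protein. The genes are long, with large introns, and total RNA holds unspliced precursor RNA beside finished transcripts. The strand setting of the counting is not given in the sources used here, so reads of an intronic transcript and of the host gene's own precursor cannot be told apart, nor can those of an exonic transcript and the messenger RNA.

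For 9 of the 63 transcripts, GENCODE M21 holds a transcript of the same start and end, which gives a sequence. Gm26653 lies antisense to Grin2b, and the other 8 lie in Grm5 and Grik2 on the strand of the host gene. The last 100 bases of 4 of these are shown 5′ to 3′ with the polyadenylation signals AATAAA and ATTAAA in capitals where they lie in the last 50 bases, because such a signal stands near the 3′ end of many polyadenylated RNAs; its presence is a description and shows no use. Gm44846 is the member with the lowest adjusted p in the injury comparison (NONMMUT062614.2, Grm5, chr7:88119158-88122400, plus strand). Gm44847 is its neighbour in the same intron (NONMMUT062612.2, chr7:88082813-88084803, plus strand). Gm44926 lies nearer the start of Grm5 (NONMMUT062610.2, chr7:87772567-87774392, plus strand), and Gm47017 lies in Grik2 (NONMMUT005537.2, chr10:49188994-49192365, minus strand).
Gm44846: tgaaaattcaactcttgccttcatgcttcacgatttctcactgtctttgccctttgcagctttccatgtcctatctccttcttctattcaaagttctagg
Gm44847: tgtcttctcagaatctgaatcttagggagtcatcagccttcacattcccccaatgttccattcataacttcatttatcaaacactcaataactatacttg
Gm44926: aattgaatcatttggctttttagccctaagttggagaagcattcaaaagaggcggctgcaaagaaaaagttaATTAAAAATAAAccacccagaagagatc
Gm47017: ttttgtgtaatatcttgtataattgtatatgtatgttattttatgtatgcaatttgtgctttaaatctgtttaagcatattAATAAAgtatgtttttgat
A signal stood in 5 of the 9 members with a sequence. Of these 9, 7 were of the GENCODE class TEC (loci awaiting experimental testing), and 3 of the 7 (42.9%) held a signal, against 29.0% of all 3296 GENCODE transcripts of that class. Neither of the 2 neighbours in the last intron of Grm5 held one.

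RefSeq promoter sequences (GRCm38.p6) were at hand for Gria2, Gria4 and Grik2. They were searched on both strands for GGACAGC and CAGCACC, the pair of core stretches of the RE1 site that the repressor REST binds in genes of neurons, and for the GC box GGGCGG. The Gria2 promoter is printed because the gene sum with the largest called fall belonged to it. The Gria4 promoter is printed because all transcripts of that gene lay below 0 against control. In injury this held as well for all tested transcripts of Gria1, Gria2, Grin2a, Grin2b and Grm5. Each promoter is shown as the 250 bases before the start, minus strand of the genome (chr3:80802836-80803085 for Gria2, chr9:4796235-4796484 for Gria4).
Gria2: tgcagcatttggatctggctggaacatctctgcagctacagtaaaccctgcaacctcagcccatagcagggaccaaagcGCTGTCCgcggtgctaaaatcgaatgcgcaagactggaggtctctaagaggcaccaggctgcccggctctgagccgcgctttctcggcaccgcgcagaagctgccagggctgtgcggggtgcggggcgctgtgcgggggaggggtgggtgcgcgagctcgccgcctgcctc
Gria4: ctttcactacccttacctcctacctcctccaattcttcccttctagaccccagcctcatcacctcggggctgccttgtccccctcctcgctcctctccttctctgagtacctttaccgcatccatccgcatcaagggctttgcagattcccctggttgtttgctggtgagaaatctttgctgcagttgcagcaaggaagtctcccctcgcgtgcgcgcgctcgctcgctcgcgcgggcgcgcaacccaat
The capitals mark GGACAGC on the opposite strand, which stood in Gria2 and in neither of the others; 5.28% of 32851 promoters of that length hold it. CAGCACC (5.73% of promoters) and GGGCGG (32.7%) had an exact match in none of the 3. Near matches were not searched for. Close after the capitals in Gria2 stands ggtgcta, which reads TAGCACC on the opposite strand and differs from CAGCACC in its first base alone. The missing exact match thus does not show that the pair is absent there, and binding was not tested.

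The deposited counts of all listed transcripts summed to between 2295433 and 3148744 a library, 17.1% to 19.5% of what the FPKM values imply for the whole library. On principal components of log2 CPM (TMM-scaled counts per 1e6 listed counts), the control libraries lay apart from the rest on the first component and HBO replicate 3 on the second. Replicates of a group differed by more than counting noise (6.54 to 17.7 as chi-square over its degrees of freedom), so none was a repeat deposit. With library totals from FPKM in place of TMM, the median log2 change of all transcripts moved to -0.21 for injury and -0.16 for HBO against control, and that of the receptor transcripts to -0.90 and -0.77.

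Summed by gene, the transcripts inside all 8 receptor genes had a lower mean in injured than in control cord. The sums of 4 genes passed as lower at an adjusted p under 0.05 (quasi-likelihood test of edgeR, Benjamini-Hochberg over all host-gene sums), namely the AMPA subunit genes Gria2, Gria3 and Gria4 and the metabotropic receptor gene Grm5. No receptor sum passed as higher. Of all 7074 host-gene sums tested, 3.85% passed as lower and 11.9% as higher, with a median log2 change of 0.21, while the 8 receptor sums had a median of -0.74. With TMM taken on the host-gene sums themselves, all sums had a median of 0.01 and the receptor sums one of -0.93. There 6 of 8 receptor sums passed as lower. Of all 7074 sums, 438 passed as lower and 459 as higher there, in place of 272 and 842. Lower calls were then 48.8% of all calls, in place of 24.4% (50.1% with FPKM totals). The count of 4 became 0 without injury replicate 1 or control replicate 1, and 1 without control replicate 2. Without the transcripts that touch an exon, 6 of 8 sums passed as lower, against 7.34% of the 3815 sums left. These sums were fitted by themselves, with their own estimate of the spread. Gria4 has no exonic transcript and kept its log2 change of -0.80, yet its adjusted p (edgeR) moved from 0.0180 to 0.000685 there. The counts of 4 and 6 thus do not show the effect of exonic transcripts alone. In tissue of many cell types, fewer cells of a type and less RNA per cell cannot be told apart.

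**Figure D1:**
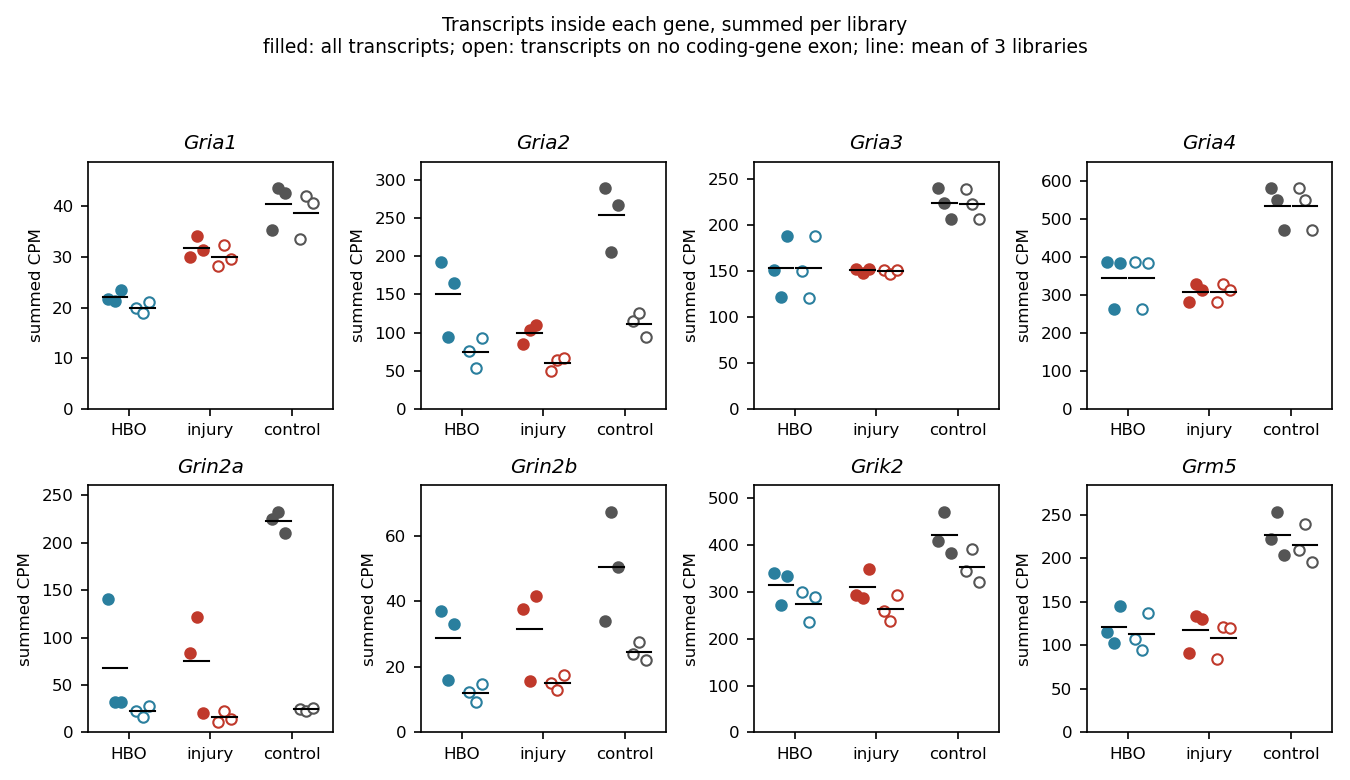
Summed CPM of the transcripts inside each of the 8 glutamate receptor genes in every library (filled points, all transcripts; open points, transcripts that touch no exon of a coding gene; bars, mean of 3 libraries). With filled and open points each taken by themselves, control lies above all injury and HBO points for Gria1, Gria2, Gria3, Gria4, Grik2 and Grm5. The filled points of Grin2a and Grin2b scatter widely within the HBO and injury groups.

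Gria1 encodes the AMPA subunit GluA1. Its 3 transcripts summed to 21.7, 21.4 and 23.4 CPM in HBO replicates 1, 2 and 3, to 30.0, 34.2 and 31.3 CPM in injury, and to 35.4, 43.6 and 42.7 CPM in control. The 3 groups did not overlap, with HBO lowest and control highest. Injury against control had a log2 change of -0.35 (SE 0.14, adjusted p = 0.125, edgeR; -0.54 and 0.0455 with TMM on host-gene sums), and HBO against control one of -0.87 (SE 0.15, adjusted p = 0.0149). The HBO call on the sum was lost without control replicate 1 (adjusted p = 0.0568, log2 change -0.97). HBO against injury had a log2 change of -0.52 (SE 0.15, adjusted p = 0.993). Most of the sum came from NONMMUT009866.2, a spliced transcript in intron 13 of the principal isoform, which held 69.3% of it in HBO, 74.5% in injury and 75.8% in control. That transcript had 13.1, 18.1 and 14.8 CPM in HBO, 23.4, 25.6 and 22.1 CPM in injury and 27.7, 33.7 and 30.8 CPM in control. Its groups also stood apart in the same order. It was lower in HBO than in control, by a log2 change of -1.0 (SE 0.18, adjusted p = 0.0309), a call that was lost when any library but injury replicate 1 was left out (adjusted p = 0.0518 to 0.0996). The second transcript by level, NONMMUT009865.2 in intron 6, averaged 4.59 ± 3.29 CPM in HBO, 6.30 ± 1.40 CPM in injury and 8.02 ± 2.01 CPM in control and did not pass.

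Gria2 encodes GluA2, the subunit whose edited form keeps AMPA receptors from passing calcium. Its 5 transcripts summed to 192, 94.0 and 166 CPM in HBO, 85.1, 103 and 110 CPM in injury and 289.6, 205 and 268 CPM in control. The injury libraries lay far below the control libraries, and HBO lay between them with replicate 2 at the injury level. The injury sums were 39.1% of control, a log2 change of -1.35 (SE 0.26, adjusted p = 0.0155), lost without injury replicate 1 (adjusted p = 0.0637) or control replicate 1 (adjusted p = 0.0607). Much of that size came from 1 transcript on a UTR exon, NONMMUT043572.2, counted 227, 13 and 14 times in HBO, 10, 11 and 10 times in injury and 345, 16 and 346 times in control. Its counts fell into a high and a low level within HBO and within control, and it did not pass in either comparison. Without the transcripts on exons, the Gria2 sums were 76.0, 52.8 and 93.2 CPM in HBO, 49.7, 64.3 and 66.9 CPM in injury and 115, 126 and 94.5 CPM in control. These intronic sums were lower in injury, by a log2 change of -0.89 (SE 0.18, adjusted p = 0.00190), and in HBO, by -0.59 (SE 0.18, adjusted p = 0.0245), each against control.

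Among the intronic transcripts of Gria2, NONMMUT043577.2 in intron 2 (chr3:80786989-80789374) had 13.1, 11.7 and 16.0 CPM in HBO, 12.8, 10.03 and 14.6 CPM in injury and 29.2, 21.8 and 21.7 CPM in control. All 6 libraries of injured animals lay below the 3 controls. It was lower in injury, with a log2 change of -0.96 (SE 0.22, adjusted p = 0.0446), and the call was lost when any library but HBO replicate 2 was left out (adjusted p = 0.0548 to 0.149). The transcript of highest mean over all 9 libraries, NONMMUT043576.2 in intron 6, averaged 49.3 ± 16.5 CPM in HBO, 37.7 ± 7.70 CPM in injury and 67.8 ± 13.5 CPM in control (SD, n = 3 each), and did not pass. In control it stood below the mean of NONMMUT043572.2, at 84.3 ± 67.8 CPM. NONMMUT043575.2, which lies on an exon of a noncoding isoform of Gria2, averaged 44.8 ± 19.4 CPM in HBO, 35.4 ± 3.88 CPM in injury and 58.4 ± 13.2 CPM in control and did not pass either.

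Gria3, on the X chromosome, encodes GluA3. Its 7 transcripts summed to 151, 122 and 189 CPM in HBO, 152, 148 and 152 CPM in injury and 240.4, 224 and 207 CPM in control. The injury libraries were nearly level with each other, and every HBO and injury library lay below every control. Injury was lower by a log2 change of -0.57 (SE 0.15, adjusted p = 0.0405), which did not hold when any library but HBO replicate 2 or 3 was left out (adjusted p = 0.0563 to 0.123). HBO against control stood at -0.54 (SE 0.15, adjusted p = 0.0541, and 0.0350 without HBO replicate 3). On intronic transcripts alone it stood at -0.54 with an adjusted p of 0.00825. The transcript left out there, NONMMUT072212.2, had only 2 or 3 counts a library. The lower p thus came with the separate fit and not with a larger change. A pair of neighbours in intron 13 made up most of the sum. NONMMUT072210.2 (chrX:41656753-41659232) had 86.8, 70.2 and 98.6 CPM in HBO, 77.1, 76.2 and 74.0 CPM in injury and 142, 129 and 112 CPM in control. It was lower in injury than in control by -0.75 (SE 0.17, adjusted p = 0.0401), a call lost when any library but HBO replicate 2 or 3 was left out (adjusted p = 0.0578 to 0.138). Its neighbour NONMMUT072211.2 averaged 48.2 ± 15.5 CPM in HBO, 56.4 ± 4.43 CPM in injury and 76.6 ± 2.09 CPM in control and did not pass, at -0.44 in injury and -0.67 in HBO.

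Gria4 encodes GluA4, and all 11 of its transcripts were intronic and tested. They summed to 388, 265 and 384 CPM in HBO, 281, 329.6 and 314 CPM in injury and 582, 551 and 472 CPM in control. No HBO or injury library reached the lowest control. Injury was lower by a log2 change of -0.80 (SE 0.16, adjusted p = 0.0180), a call lost without injury replicate 1, control replicate 1 or control replicate 2 (adjusted p = 0.0541 to 0.0701). HBO was lower by -0.63 (SE 0.16, adjusted p = 0.0401), a call lost when any library but HBO replicate 1 was left out (adjusted p = 0.0519 to 0.131). Single transcripts had log2 changes of -0.94 to -0.32 in injury and -0.93 to -0.45 in HBO against control, all 11 below 0 in both. Their middles lay from 6.597 to 362 kb from the start of the gene. The highest levels per length stood in intron 14, which held 4 members, among them NONMMUT067903.2 and NONMMUT067904.2, whose ends overlap. NONMMUT067902.2 in that intron (chr9:4440683-4442538) had 60.3, 43.6 and 72.9 CPM in HBO, 46.4, 51.3 and 53.4 CPM in injury and 115, 84.2 and 90.3 CPM in control. It was the only one of the 11 that passed, lower in injury by -0.94 (SE 0.21, adjusted p = 0.0414), lost when any library but HBO replicate 2 or 3 was left out (adjusted p = 0.0600 to 0.149). NONMMUT067903.2, the most abundant, averaged 77.4 ± 14.04 CPM in HBO, 68.0 ± 9.29 CPM in injury and 114 ± 15.3 CPM in control, with an adjusted p of 0.0556 in injury.

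**Figure D2:**
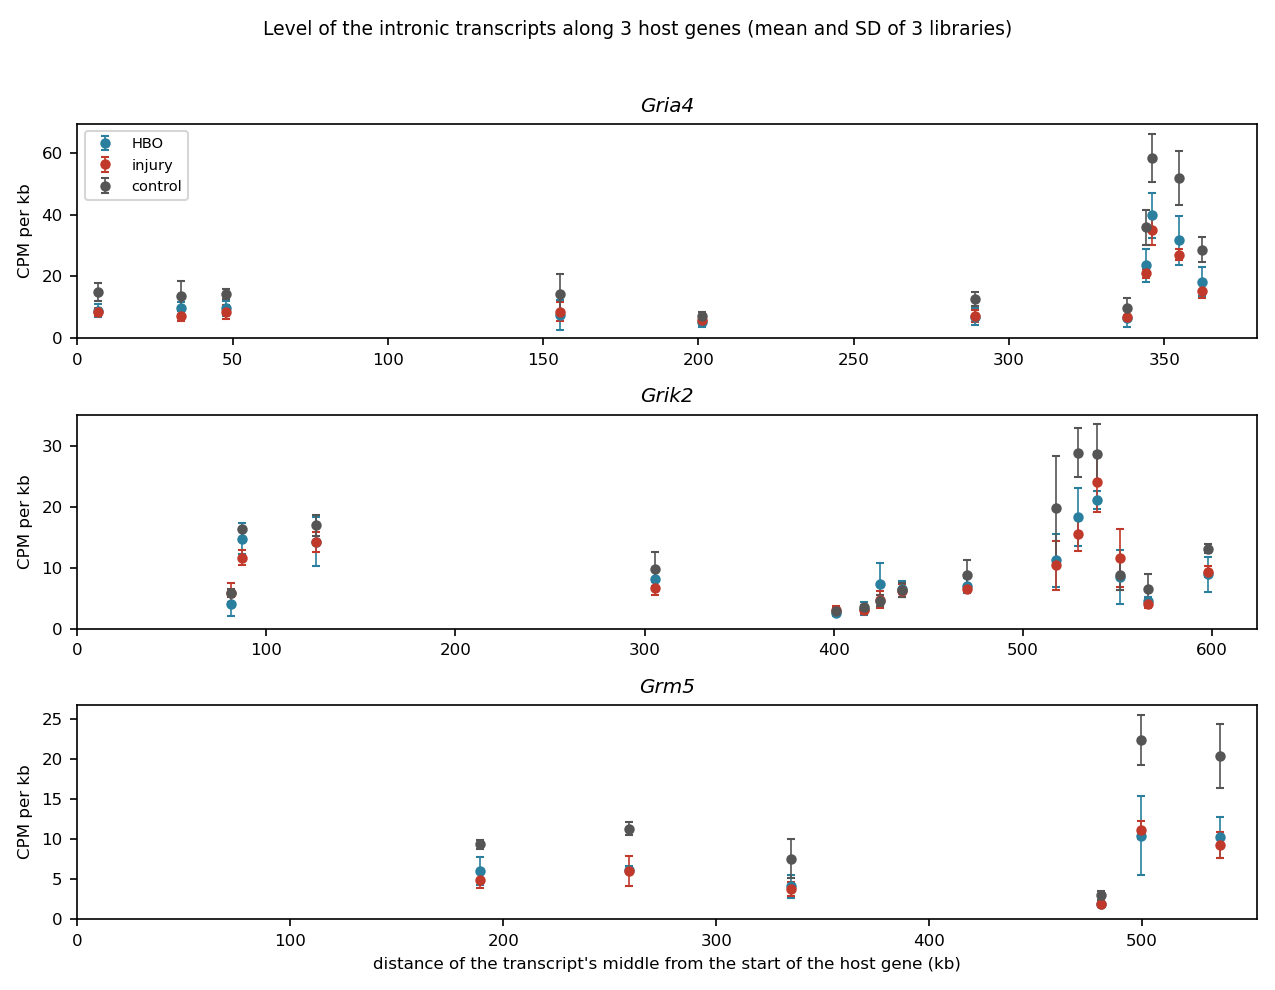
CPM per kb of each tested intronic transcript (mean and SD of 3 libraries, HBO, injury and control) against the distance of its middle from the start of Gria4, Grik2 or Grm5 in kb. In Gria4 the control means lie above the HBO and injury means at all 11 positions, from 7.16 CPM per kb at 201 kb to 58.4 at 346 kb, whereas several transcripts in the middle of Grik2 have means close together.

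The NMDA subunit genes Grin2a and Grin2b, for GluN2A and GluN2B, held 5 transcripts each, and neither full sum passed in a comparison. In both, the most abundant transcript lay over the UTR exon at the 3′ end. In Grin2a this was NONMMUT025443.2, with 66.7% of the sum in HBO, 78.3% in injury and 88.8% in control, counted 316, 37 and 9 times in HBO, 197, 265 and 17 times in injury and 548, 547 and 526 times in control. Its counts were even in control and differed by over 10-fold within HBO and within injury. The Grin2a sums followed it, at 141, 32.3 and 31.6 CPM in HBO, 83.6, 122 and 20.3 CPM in injury and 225, 233 and 210.3 CPM in control. Every HBO and injury library lay below every control, with a log2 change of -1.57 (SE 0.70, adjusted p = 0.156) in injury and -1.70 (SE 0.70, adjusted p = 0.143) in HBO. Without HBO replicate 1, HBO against control stood at -2.80 and passed (adjusted p = 0.0358). The intronic transcripts of Grin2a averaged 22.2 ± 5.57 CPM in HBO, 16.0 ± 5.95 CPM in injury and 24.4 ± 1.61 CPM in control, and did not pass either, with overlapping groups. NONMMUT025447.2 in intron 3 averaged 7.13 ± 3.62 CPM in HBO, 8.27 ± 3.57 CPM in injury and 11.3 ± 2.12 CPM in control. NONMMUT025446.2 in the same intron had 11.2, 8.07 and 12.9 CPM in HBO and 4.38, 6.69 and 4.62 CPM in injury, with 9.85, 6.89 and 7.35 CPM in control. HBO and injury did not overlap, and the log2 change between them was 1.03 (SE 0.30, unadjusted p = 0.0078 and adjusted p = 1.00, edgeR).

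In Grin2b, NONMMUT124530.1 was counted 62, 10 and 43 times in HBO, 57, 2 and 62 times in injury and 17, 94 and 73 times in control. Each group thus held 1 low library, and the full Grin2b sums overlapped between groups, with a log2 change of -0.67 (SE 0.43, adjusted p = 0.305) in injury against control. The 2 intronic transcripts summed to 12.4, 9.28 and 14.8 CPM in HBO, 15.0, 13.0 and 17.4 CPM in injury and 24.1, 27.6 and 22.0 CPM in control. Here all HBO and injury libraries lay below all controls. These intronic sums were lower in injury, at -0.69 (SE 0.23, adjusted p = 0.0298), and in HBO, at -1.01 (SE 0.24, adjusted p = 0.00479), each against control. They rest on 23 to 72 counts a library. The larger of them, NONMMUT124532.1 in intron 5, averaged 7.23 ± 1.87 CPM in HBO, 7.88 ± 1.77 CPM in injury and 14.4 ± 3.12 CPM in control and did not pass by itself.

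**Figure D3:**
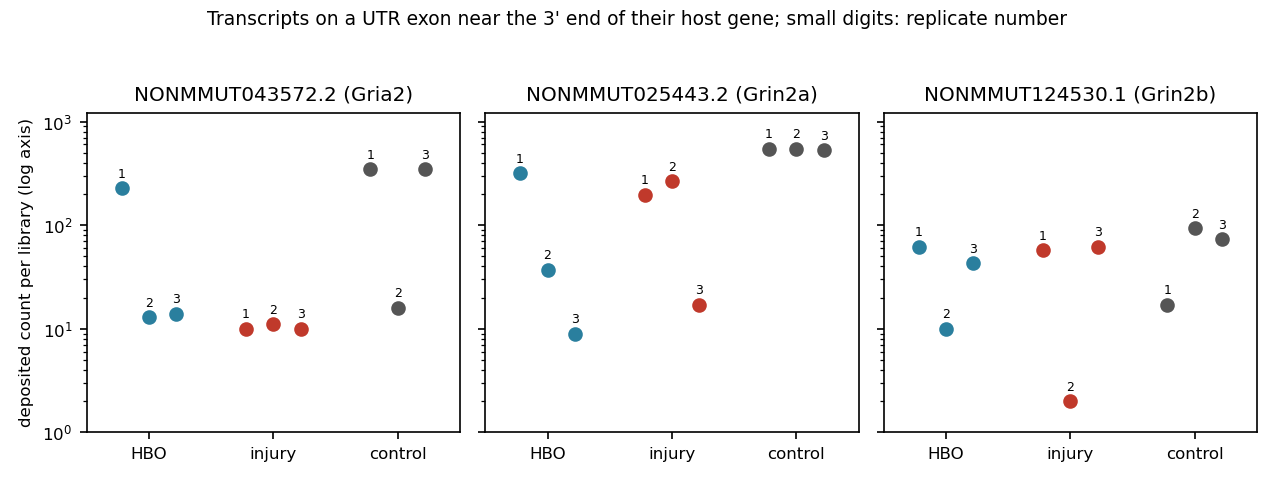
Deposited counts per library, on a log axis, by group with replicate numbers. Drawn is a transcript on a UTR exon near the 3′ end of each of Gria2, Grin2a and Grin2b. Other members on such exons are not drawn. Some were more even, among them NONMMUT005533.2 of Grik2 (88 to 183 counts) and NONMMUT009867.2 of Gria1 (4 to 6 counts). NONMMUT005535.2 of Grik2 was not, with counts of 16, 0 and 0 in HBO, 0, 0 and 12 in injury and 14, 25 and 28 in control. Within 1 group the counts run from 13 to 227 (Gria2, HBO), from 9 to 316 (Grin2a, HBO) and from 2 to 62 (Grin2b, injury).

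Grik2 encodes the kainate subunit GluK2 and held the most members, 18, of which 17 were tested. They summed to 341, 271 and 334 CPM in HBO, 294, 286 and 348 CPM in injury and 409.6, 471 and 384 CPM in control. All HBO and injury libraries lay below all controls by a small margin. The log2 change was -0.45 (SE 0.13, adjusted p = 0.0521) in injury and -0.42 (SE 0.13, adjusted p = 0.0744) in HBO, and neither passed. The injury change passed without HBO replicate 2 (adjusted p = 0.0425) and with TMM on host-gene sums (adjusted p = 0.0331). On intronic transcripts alone, in the separate fit, both passed, at -0.42 (adjusted p = 0.0207) in injury and -0.36 (adjusted p = 0.0460) in HBO. These changes were no larger than those of the full sums. Its transcripts were more mixed than those of Gria4: 13 had a negative and 4 a positive log2 change in injury, and none passed. The intronic one of highest mean over all 9 libraries, NONMMUT005541.2 in intron 12 (chr10:49258507-49260825), had 40.8, 32.3 and 54.2 CPM in HBO, 34.0, 30.5 and 43.0 CPM in injury and 58.7, 76.9 and 64.7 CPM in control. Its groups stood apart from control, with a log2 change of -0.90 (SE 0.23, adjusted p = 0.0517) in injury. NONMMUT005540.2, next to it in the same intron, averaged 39.4 ± 2.77 CPM in HBO, 44.8 ± 9.25 CPM in injury and 53.5 ± 8.97 CPM in control. It had a log2 change of -0.25 in injury (adjusted p = 0.433) and of -0.44 in HBO (adjusted p = 0.194) against control and did not pass. NONMMUT005543.2 in intron 11 had a log2 change of -0.02 in injury and 0.04 in HBO against control. NONMMUT005533.2, which runs over the 3′ end of the gene, averaged 38.5 ± 5.82 CPM in HBO, 44.6 ± 8.32 CPM in injury and 60.5 ± 8.86 CPM in control and did not pass. NONMMUT005540.2 and NONMMUT005543.2 were chosen for the sentences above after their values were seen.

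Grm5 encodes the group I metabotropic receptor mGluR5. Its 9 transcripts summed to 115, 103 and 146 CPM in HBO, 91.3, 133 and 129.8 CPM in injury and 222, 254 and 204 CPM in control. All HBO and injury libraries lay well below all controls. Injury was lower by a log2 change of -0.94 (SE 0.19, adjusted p = 0.0176) and HBO by -0.90 (SE 0.19, adjusted p = 0.0240), each against control. The injury call was lost without injury replicate 1, control replicate 1 or control replicate 2 (adjusted p = 0.0552 to 0.0607), and the HBO call without HBO replicate 2, control replicate 1 or control replicate 2 (adjusted p = 0.0692 to 0.0815). On intronic transcripts alone the log2 changes were -0.99 (SE 0.16, adjusted p = 0.000265) and -0.92 (SE 0.16, adjusted p = 0.000546).

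The Grm5 transcript of highest mean over all 9 libraries was NONMMUT062614.2 (Gm44846) in intron 9, whose 3′ end is printed above. It had 30.3, 26.6 and 42.5 CPM in HBO, 24.1, 32.7 and 33.4 CPM in injury and 59.1, 80.7 and 58.1 CPM in control. No HBO or injury library came near the controls. It was lower in injury by -1.13 (SE 0.23, adjusted p = 0.0337) and in HBO by -0.99 (SE 0.23, adjusted p = 0.0498), the only member that passed in both. The injury call was lost when any injury or control library was left out (adjusted p = 0.0602 to 0.130), and the HBO call when any of the 9 libraries was (adjusted p = 0.0541 to 0.165). MSTRG.49384.1, a spliced transcript in intron 4 (chr7:87840319-87845986), had 32.6, 29.8 and 33.9 CPM in HBO, 20.5, 38.6 and 34.5 CPM in injury and 63.5, 56.3 and 56.0 CPM in control. Its HBO and injury libraries again lay below all controls, and its injury mean of 31.2 ± 9.53 CPM stood beside 30.1 ± 5.19 CPM for NONMMUT062614.2. It was lower in injury by -0.91 (SE 0.22, adjusted p = 0.0495), lost when any of the 9 libraries was left out (adjusted p = 0.0582 to 0.1503).

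Taking the transcripts singly, 54 of the 63 passed the filter on low counts, 47 of them off exons and 7 on exons. In injury against control 5 of the 54 passed as lower and 0 as higher, where 2.38% of the 26526 tested transcripts passed as lower. Of all calls 39.99% were lower, and 67.4% with FPKM totals. The 5 were the transcripts of Gria2, Gria3, Gria4 and Grm5 given above, all of them intronic. A negative log2 change was seen in 49 of 54, with a median of -0.66 against 0.01 over all tested transcripts. The injury libraries lay wholly below the control libraries for 31 of the 54, as they did for 18.7% of all tested. The count of 5 became 0 without any one injury or control library, 2 without HBO replicate 1 and 8 without HBO replicate 2.

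**Figure D4:**
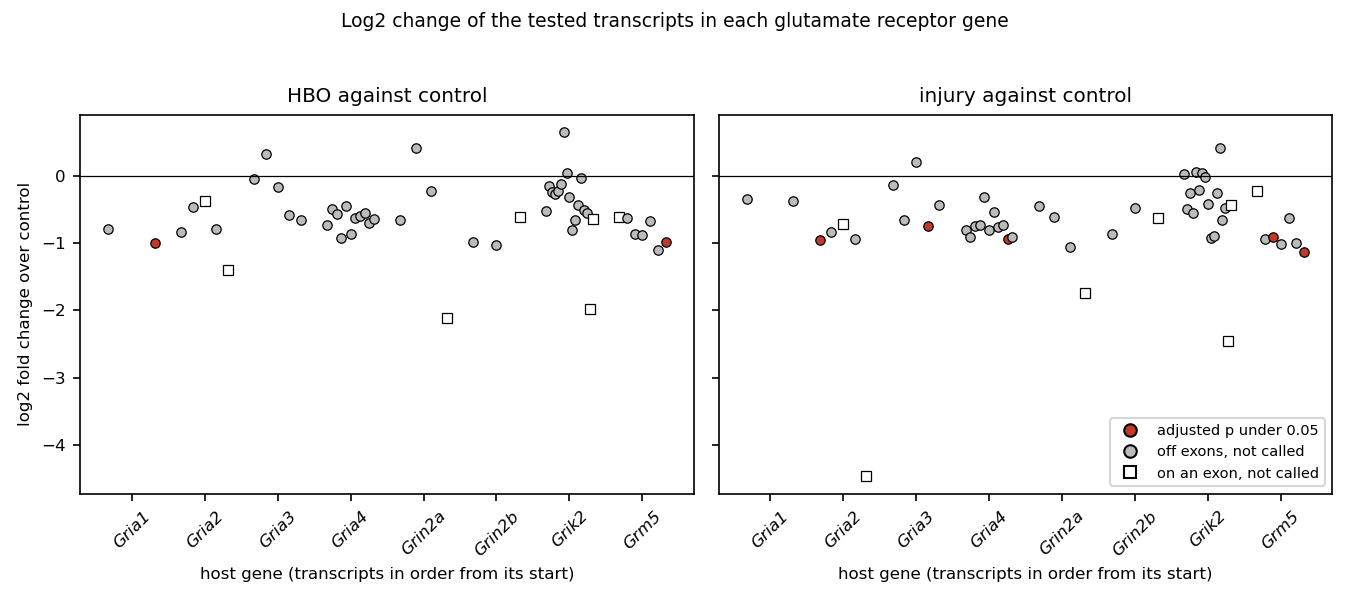
Log2 fold change over control of each tested transcript, by host gene and in order from the gene's start, for HBO (left) and injury (right); red points passed at an adjusted p under 0.05 and squares touch an exon. Most points lie between -1.13 and 0, and the lowest are the exonic transcripts of Gria2 (-4.47), Grik2 (-2.46) and Grin2a (-1.75) in injury, none of which passed.

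The treatment was read in HBO against injury. No receptor transcript passed, where 0.00754% of all tested passed as lower, and 4 of the 54 had an unadjusted p under 0.05 by edgeR, as did 3.62% of all tested; DESeq2 called 0 as well. No receptor gene sum passed (0.0141% of all sums passed as lower), with adjusted p = 0.993 for all 8, and DESeq2 called 0. An unadjusted p under 0.05 was reached by 2 of the 8 gene sums and by 4.28% of all sums. These were Gria1, given above, and Gria2 at 0.60 (SE 0.25), whose HBO sums overlapped those of injury. The mean HBO sums were 151.5% of injury for Gria2, 112% for Gria4, 103% for Grm5, 102.03% for Gria3, 101.8% for Grik2, 91.0% for Grin2b, 90.9% for Grin2a and 69.6% for Gria1. The median log2 change of the 54 transcripts was 0.09, and -0.00081 over all tested. A p that misses the threshold does not show that the groups were alike.

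HBO against control used the same control libraries as injury against control, so their values stand side by side and were not set against each other. The sums of Gria1, Gria4 and Grm5 passed as lower in HBO, 3 of 8, where 2.29% of all host-gene sums passed as lower and 9.22% as higher (19.9% of calls lower, 38.7% with TMM on host-gene sums and 34.4% with FPKM totals). The median of the 8 was -0.78, and that of all sums 0.17. The count was 0 without control replicate 1, and 1 without control replicate 2 or HBO replicate 2. On intronic transcripts alone 7 of 8 passed, all but Grin2a (-0.14, adjusted p = 0.731), where 6.29% of sums did. The intronic sums were fitted once, on all 9 libraries. No library was left out and no other setting was run for them in any comparison, so how far their calls hold was not tested. Of the 54 transcripts 2 passed as lower, in Gria1 and Grm5 (1.32% of all tested; 31.8% of calls lower, 46.3% with FPKM totals), and the median log2 change was -0.61, with 0.00 over all tested. HBO libraries lay wholly below control for 24 of the 54, and for 16.6% of all tested. The count of 2 became 0 without any one of control replicates 1, 2 and 3, injury replicates 2 and 3 or HBO replicates 1 and 2, and 1 without HBO replicate 3.

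Levels of the intronic transcripts were compared between genes per kb of their summed length. In HBO the order began with Gria4 (15.5 ± 3.15 CPM per kb, SD, n = 3) and Gria3 (13.6 ± 2.98) and ended with Grin2a (3.66 ± 0.918) and Grin2b (2.55 ± 0.582). In injured cord Gria4 (13.8 ± 1.13) and Gria3 (13.3 ± 0.208) were again highest and Grin2b (3.18 ± 0.465) and Grin2a (2.63 ± 0.980) lowest. The ranges of each of these pairs overlapped. In control cord, Gria4 had the highest level, 24.0 ± 2.56 CPM per kb, followed by Gria3 with 19.8 ± 1.47, and their ranges overlapped slightly. Gria2 (13.6 ± 1.93), Grik2 (11.9 ± 1.20), Grm5 (11.7 ± 1.21) and Gria1 (11.2 ± 1.32) came next and did not differ beyond their spread. The NMDA subunit genes Grin2b (5.15 ± 0.585) and Grin2a (4.02 ± 0.266) were lowest in control and did not overlap each other or the rest.

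Other genes of glutamate signalling were read from the transcripts inside them in the same way. Other ionotropic subunit genes gave 6 tested sums, with a median log2 change of -0.61: 3 were lower in injury than in control and 0 higher. Of all tested sums, 3.85% were lower and 11.9% higher in injury, and 2.29% lower and 9.22% higher in HBO, each against control. Grid1, a delta-type subunit gene, was lower by -1.77 (19.6 ± 14.1 CPM in injury and 66.8 ± 1.51 CPM in control, adjusted p = 0.0287) and the kainate subunit gene Grik1 by -0.80 (98.9 ± 21.9 CPM in injury and 172 ± 19.8 CPM in control, adjusted p = 0.0218). Among 9 tested auxiliary subunit genes 1 was lower, Cacng2, for the transmembrane AMPA receptor regulator stargazin, at -1.14. Of 15 tested genes of postsynaptic scaffolds and signalling 1 was lower and 1 higher. Dlg2, for the scaffold PSD-93, was lower by -0.82 (702 ± 89.3 CPM in injury and 1244 ± 51.5 CPM in control), and the kinase gene Camk2d was higher by 0.74. Of 10 tested genes of glutamate transport and metabolism 2 were higher and 0 lower: the astrocyte glutamate transporter gene Slc1a3 by 0.94 (224 ± 51.2 CPM in injury and 117 ± 7.85 CPM in control) and the cystine-glutamate exchanger gene Slc7a11 by 1.23. Off exons, 3 of 9 tested scaffold sums were lower and 1 higher in injury, and 1 of 7 transport sums was lower and 2 higher. Of all 3815 sums tested off exons, 280 (7.34%) were lower and 872 higher in injury. In HBO against control 2 of the 6 other ionotropic sums were lower, among them Grik1 by -0.74, and 0 auxiliary sums passed. There 2 scaffold sums were lower (Dlg2 by -0.70, Grip1 by -0.57), and Camk2d and Slc1a3 were higher by 0.62 and 0.83. In HBO against injury none of these lists had a member that passed.

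Transcripts inside marker genes of cell types were summed in the same libraries. Of 7 tested neuronal marker sums (of 14 genes, 10 with a listed transcript), 5 were lower in injury and 4 in HBO than in control, 0 higher in either, with medians of -0.89 and -0.67; over all sums the shares were the 3.85% lower and 11.9% higher in injury, and 2.29% and 9.22% in HBO, given above. Syt1, for a synaptic vesicle calcium sensor, had -0.92 in injury and -1.04 in HBO. Their summed level was 1828 to 2391 CPM in HBO, 1803 to 2362 CPM in injury and 3336 to 3601 CPM in control. Of 5 tested astrocyte marker sums 2 were higher in injury. The 5 together had 204 to 270.2 CPM in HBO, 227 to 317 in injury and 129 to 152 in control. Among the 2 was Slc1a3, the transporter gene already given above, which made up most of that level in injury and in control. Of 4 tested for microglia and macrophages 2 were higher in injury. The 4 together had 184 to 247 CPM in HBO, 191 to 296 in injury and 108 to 130.1 in control. Of 5 tested fibroblast sums 2 were higher in injury (991 to 2003 CPM in HBO, 232 to 680.1 in injury and 10.7 to 87.8 in control), among them the collagen gene Col1a2, by 4.32 (72.5 ± 24.7 CPM in HBO, 76.1 ± 29.9 in injury and 3.77 ± 1.41 in control). Most of that summed level was Col1a1, another collagen gene, at 1403 ± 478 CPM in HBO, 361 ± 269 CPM in injury and 30.8 ± 33.2 CPM in control. Col1a1 did not pass in injury against control (adjusted p = 0.0566) or in HBO against injury (adjusted p = 0.993), and the median log2 change of the 5 fibroblast sums in HBO against injury was -0.10. The 3 tested oligodendrocyte sums did not pass (940.4 to 1128 CPM in HBO, 812 to 991 in injury and 844 to 1125 in control). Of 2 tested endothelial and pericyte sums Pecam1, for an endothelial adhesion molecule, was higher in injury by 1.36, while Flt1, for a receptor of vascular growth factor, had -3.08 and did not pass (adjusted p = 0.178), so that the median was -0.86. The 1 tested Schwann cell sum did not pass, with summed levels of at most 6.12 CPM. Defining neuronal genes such as Eno2 and Tubb3 hold no listed transcript and were not analysed here. The part that these shifts play in the receptor values was not tested.

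The 8 receptor sums, each centred on its own mean of log2 CPM and averaged, gave a profile over the 9 libraries of 0.02, -0.69 and -0.21 in HBO, -0.29, -0.23 and -0.36 in injury and 0.55, 0.68 and 0.53 in control. Controls stood highest and HBO replicate 2 lowest. Among 6380 other host-gene sums with a mean of 5 CPM or more, those most like it were Galnt5 (Pearson's r = 0.976), the neurofilament gene Nefm (0.974), Abcb6 and Atg9a (0.972 each, through 1 transcript that both share) and Anks1b (0.969). These r values run over 9 libraries that share their group differences, and are a description. Nefm sums averaged 32.2 ± 8.26 CPM in HBO, 33.0 ± 2.94 CPM in injury and 70.1 ± 7.69 CPM in control.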

How the data were processed

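Total RNA of 9 spinal cord libraries was aligned with HISAT2 to GRCm38, per the submitters' processing notes. The sources used here give no counting program, strand setting or rule for reads with several hits. The authors deposited, per the file headers, whole-number counts and FPKM values for 69547 transcripts in every library. The deposited FPKM values served for library totals alone.

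Counts were tested as listed, and also summed over each protein-coding gene body of GENCODE M21 (host-gene sums). All 9 libraries entered 1 fit by group in edgeR 4.0.16 under R 4.3.3 (TMM; glmQLFit and glmQLFTest; low counts removed by filterByExpr, minimum 10), checked on simulated counts. A Benjamini-Hochberg adjusted p under 0.05 over all tested features was called. Sums used the library sizes and TMM factors of the transcript table. CPM values carry the SD over 3 libraries, and log2 changes an SE from the test statistic.

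Named were all gene sums, the 2 transcripts of highest mean CPM per gene, every member called, and in HBO against injury the 2 with the smallest p. Of 13 lists of 138 genes the rule names up to 2 called members each way; most are given as counts, and members of lists with no call are not printed. Some list results are not reported here. Exceptions named after their values were seen include NONMMUT043572.2, NONMMUT005540.2, NONMMUT005543.2 and NONMMUT005535.2. Members, lists and naming rule were chosen with earlier results of these data known. Likeness is Pearson's r to the mean centred log2 CPM of the 8 sums. Alternatives were RLE scaling, library totals from FPKM, TMM on host-gene sums, no filter, DESeq2 1.42.0, a replicate block, 2 groups alone, other transcript sets and leaving out each library.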

Additional observations from a re-analysis of the deposited data

How the results depend on the processing

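In injury and in HBO against control, no alternative changed the direction of a receptor gene sum or named transcript; the calls moved. For transcripts, the 5 called in injury against control became 13 with library totals from FPKM, 17 with DESeq2, 8 with 2 groups alone, 0 with no filter and 0 with the replicate block, and 0 to 8 when 1 library was left out. The 2 called in HBO against control became 1 with FPKM totals, 14 with DESeq2, 0 with 2 groups alone, 0 with no filter and 0 with the replicate block, and 0 to 2 leaving out 1 library. For gene sums, the 4 in injury became 2 with the replicate block, and 0 to 5 leaving out 1 library; the 3 in HBO became 1 with the replicate block, 7 off exons, and 0 to 4 leaving out 1 library. In HBO against injury 0 members passed under every alternative run. With FPKM totals, 1281 of all 26734 tested transcripts passed as lower in injury and 367 in HBO, in place of 631 and 349 of 26526. For DESeq2, 2 groups alone, no filter, the block and leaving out 1 library, the counts over all features are not given here. Member counts under those settings are therefore no result about the receptors by themselves. The causes of these moves were not tested.

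Same-numbered libraries of different groups did not deviate together (r of -0.05 to 0.05 over 9 pairs), so the replicate number is no pairing, and a call lost under the block is not read as a weaker effect. In HBO against injury, the uncalled Grin2a sum turned to 0.48 off exons. Leaving out 1 library gave log2 changes of -0.15 to 0.17 for Gria3, -0.032 to 0.12 for Grik2, -1.23 to 0.40 for Grin2a, -0.46 to 0.15 for Grin2b and -0.12 to 0.14 for Grm5, whose signs turned.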
